A study of Mus musculus with 12 samples.

Results

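The histone genes of the mouse were followed across the RNA-seq libraries of ATDC5 cells in which Ddx5 was knocked down. They were chosen by symbol alone, as the genes named H1f, H2ac, H2bc, H3c or H4c followed by a number, together with H2az1, H2az2, H2ax, H3f3a and H3f3b, which gave 74 of the 46731 genes in the table. The classes were also set by symbol alone. By this, 58 were classed as core replication-dependent genes (17 H2A, 17 H2B, 12 H3 and 12 H4), 11 as linker genes and 5 as replacement variants. The linker genes were divided into 5 replication-dependent genes (H1f1 to H1f5), 2 replication-independent genes (H1f0 and H1f10) and 4 genes known from the germ line (H1f6 to H1f9).

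ATDC5 is a line of mouse teratocarcinoma origin that can be driven to form cartilage. All cells carried an shRNA expression cassette delivered by lentivirus and stably integrated, either a control hairpin (shRNA-NC, whose genotype the labels give as wildtype) or a hairpin against Ddx5 (shRNA-Ddx5). Each line was collected at 6 h without stimulation (medium) or with TNF-α at 25 ng/ml together with IL-1β at 5 ng/ml (cytokines), with 3 replicates in each of the 4 groups. A single stable line stood for each hairpin, so that a difference between hairpins and a difference between lines cannot be told apart. The files gave FPKM, fragments scaled to gene length and to a denominator per library. Fragments on genes numbered from 14119199 to 19276520 per library. In medium the denominator was 1.064 to 1.076 times the fragments on genes in shRNA-NC and 0.986 to 1.022 times in shRNA-Ddx5. With cytokines it was 0.973 to 1.037 and 0.957 to 0.982 times. A lower denominator gives a higher FPKM for the same fragments. In medium the control libraries held Ddx5 itself at 319 ± 22.3 FPKM (SD, n = 3) and the knockdown libraries at 103 ± 13.9 (SD, n = 3), and with cytokines these means were 310 ± 14.9 and 99.5 ± 5.27. Of 8 cartilage markers all had a fragment and 3 passed the filter on low values, among them Col2a1, whose FPKM was from 9.09 to 15.04 in shRNA-NC and from 0.850 to 0.952 in shRNA-Ddx5 cells in medium. Sox6 and Col9a1 of the same list, both below the filter, lay the other way in medium, at 0.166 to 0.181 against 0.816 to 0.968 FPKM and at 0 against 0.183 to 0.244 FPKM. In medium 0 of the 3 tested rose and 1 fell, and with cytokines 0 rose and 2 fell. The part of these markers in the histone differences was not tested. Of 3 hypertrophic markers 1 was tested, which did not pass in medium and rose with cytokines, and 1 of 4 macrophage markers was tested and passed in neither condition. None of 3 endothelial markers passed the filter.

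Core histones form the protein spool around which DNA is wound, and linker histones bind where DNA enters and leaves it. Replication-dependent histone genes lie in clusters, have no introns in their classical form and are read mainly in S phase, and their mRNAs normally end in a stem-loop in place of a poly(A) tail. Replacement variants such as H3.3 (H3f3a and H3f3b) and H2A.Z (H2az1 and H2az2) are made throughout the cell cycle from polyadenylated mRNAs. The libraries were made from RNA captured on poly-T beads, so a value of a replication-dependent gene describes what that capture retained, whether polyadenylated forms or carry-over, and not the total mRNA of the gene.

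The stem-loops are shown first because they mark off the class whose levels differed most. A search of the 150 bases after each annotated stop codon in GRCm39, on the strand of the gene, was made for a stem of 6 pairs beginning GG and a loop of 4 bases with T at loop positions 1 and 3. It found one in 56 of the 58 core genes, in all 5 replication-dependent linker genes and in H2ax and H1f6. The core genes H2ac22 and H2bc21 had none, nor had H1f0, H1f10, H3f3a, H3f3b, H2az1 and H2az2. Of the 21594 other annotated genes with a stop codon, 26 (0.120%) had a match. The match began 22 to 59 bases after the stop codon (median 31.0), and 9 different 16-base forms occurred, the commonest of them in 39 of 63 members. The sites of 5 members that the results turn on are given 5′ to 3′ on the gene's strand, with the stem-loop in capitals, as DNA. They lie at chr13:22225131-22225156 (minus strand) for H4c9, chr3:96153343-96153368 (plus) for H2ac18, chr13:23945868-23945893 (minus) for H3c1, chr13:23868625-23868650 (plus) for H2bc4 and chr13:23923490-23923515 (plus) for H1f2.
H4c9: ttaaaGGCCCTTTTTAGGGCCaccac
H2ac18: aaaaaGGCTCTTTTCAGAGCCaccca
H3c1: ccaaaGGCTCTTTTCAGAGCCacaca
H2bc4: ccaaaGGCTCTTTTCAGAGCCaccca
H1f2: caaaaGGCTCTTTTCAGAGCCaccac
The stem-loop of H4c9 differs in its letters from the form that the other 4 share.

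In 56 of the 63 members with a stem-loop the gene model of the table ended within 10 bases of it, so that fragments lying beyond it were not counted. The other 7 models, of H2bc4, H2bc6, H2bc22, H2bc23, H2bc24, H3c6 and H2ax, ran on by 428 to 13623 bases. For H2bc4 the model continued for 8160 genomic bases after the stem-loop, and its value therefore includes exons downstream.

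Copies within a family resemble one another closely, which limits how far single members can be told apart. For 387 of the 407 distinct 150-base windows of H2ac18 (95.1%) the same sequence is also in H2ac19, and for H3c15 all 500 windows are also in H3c13 or H3c14. H4c9 shared 4.72% of its windows with other H4 genes and H3c1 25.5% with other H3 genes. None of the 11 linker genes and none of the replacement variants shared a window with another member. How reads with several matches were handled is not given in the sources used here, so values of single core genes are uncertain to this extent. How far the sums over a class are affected was not tested.

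The promoters of the same members were compared next. Of the 74 members 66 were found in the RefSeq promoter table (GRCm38.p6), which holds 250 bases before and 50 after the start. TATAAA was searched on both strands and occurred in 30 of 52 core and 4 of 5 replication-dependent linker promoters, against 15.7% of all 27025 promoters. CCAAT occurred in 44 of 52 core promoters (84.6%), in all 5 replication-dependent linker promoters and in 41.1% of all promoters, but in 3 of 11 promoters of H4 genes. It was also in all 4 replacement variant promoters found and in 2 of 3 germline linker promoters, and in none of the 2 replication-independent linker promoters. ATGCAAAT, the octamer known from H2B promoters, was in 7 of 14 H2B and 6 of 17 H2A promoters and in none of the 10 H3 and 11 H4 promoters, against 1.97% of all. No motif is contained in another, and a match is only a match of letters. The 150 bases before the start are given for 3 replication-dependent members, for H1f0 and for H3f3b, with every match in capitals. Their positions are chr13:22041363-22041512 (minus strand) for H4c9, chr3:96245347-96245496 (plus) for H2ac18, chr13:23738657-23738806 (plus) for H1f2, chr15:79028062-79028211 (plus) for H1f0 and chr11:116024505-116024654 (minus) for H3f3b.
H4c9: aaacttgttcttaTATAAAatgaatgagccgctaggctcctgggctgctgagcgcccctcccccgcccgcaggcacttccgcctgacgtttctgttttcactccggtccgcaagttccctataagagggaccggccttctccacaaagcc
H2ac18: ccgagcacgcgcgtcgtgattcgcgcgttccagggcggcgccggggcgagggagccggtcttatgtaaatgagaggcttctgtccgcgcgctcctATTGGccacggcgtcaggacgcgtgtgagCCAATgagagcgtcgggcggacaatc
H1f2: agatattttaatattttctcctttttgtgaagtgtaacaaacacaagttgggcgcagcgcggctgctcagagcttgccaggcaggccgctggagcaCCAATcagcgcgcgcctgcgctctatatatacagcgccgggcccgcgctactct
H1f0: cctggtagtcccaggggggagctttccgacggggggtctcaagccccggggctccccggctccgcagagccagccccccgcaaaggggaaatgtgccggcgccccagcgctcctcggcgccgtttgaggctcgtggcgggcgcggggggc
H3f3b: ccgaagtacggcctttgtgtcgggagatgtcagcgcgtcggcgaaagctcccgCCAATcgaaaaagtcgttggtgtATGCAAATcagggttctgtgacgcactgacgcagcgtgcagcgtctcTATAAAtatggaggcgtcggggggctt
In these windows H3f3b holds all 3 motifs and H1f0 holds none.

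The levels of the classes were far apart, and the abundant classes, the replacement variants and the replication-independent linker genes, had lower knockdown ratios than the scarce replication-dependent ones. The 5 replacement variants together were 854 ± 40.2 FPKM (SD, n = 3) in shRNA-NC cells in medium, the 2 replication-independent linker genes 123 ± 20.3 (SD, n = 3), the 58 core genes 23.2 ± 3.87 (SD, n = 3) and the 5 replication-dependent linker genes 14.9 ± 2.30 (SD, n = 3). The 4 germline linker genes together reached 0.144 ± 0.0828 (SD, n = 3). In RNA from whole cultures, fewer cells in a given state and less RNA per cell cannot be told apart.

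The summed FPKM of the core genes in medium was 20.5, 21.6 and 27.7 in the shRNA-NC libraries and 97.4, 79.3 and 91.7 in the shRNA-Ddx5 libraries, and with cytokines 22.1, 26.002 and 26.9 against 79.3, 85.4 and 83.3. No control library reached the level of any knockdown library, and the ratio of means was 3.85 in medium and 3.31 with cytokines. Without H4c9 and H2ac18, the most abundant core genes, the ratios were 3.35 and 2.84. The replication-dependent linker genes together went from 12.3, 16.5 and 15.96 to 48.5, 44.6 and 43.6 FPKM in medium, a ratio of 3.06, and from 6.35, 8.56 and 9.45 to 34.3, 33.8 and 29.6 with cytokines, a ratio of 4.01. The groups did not overlap there either, and H1f2 held from 83.1% to 98.9% of this sum. The replication-independent linker genes were 1.45 times as high in shRNA-Ddx5 as in shRNA-NC cells in medium and 1.36 times with cytokines, again without overlap. For the replacement variants the ratios were 1.204 and 1.22. Expressed as a share of the replacement variants of the same library, the core genes stood at 2.29% to 3.25% in shRNA-NC and at 8.49% to 8.97% in shRNA-Ddx5 cells in medium, and at 2.51% to 3.10% and 7.54% to 7.87% with cytokines. This share is free of the scaling between libraries. No test was made over class sums.

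**Figure D1:**
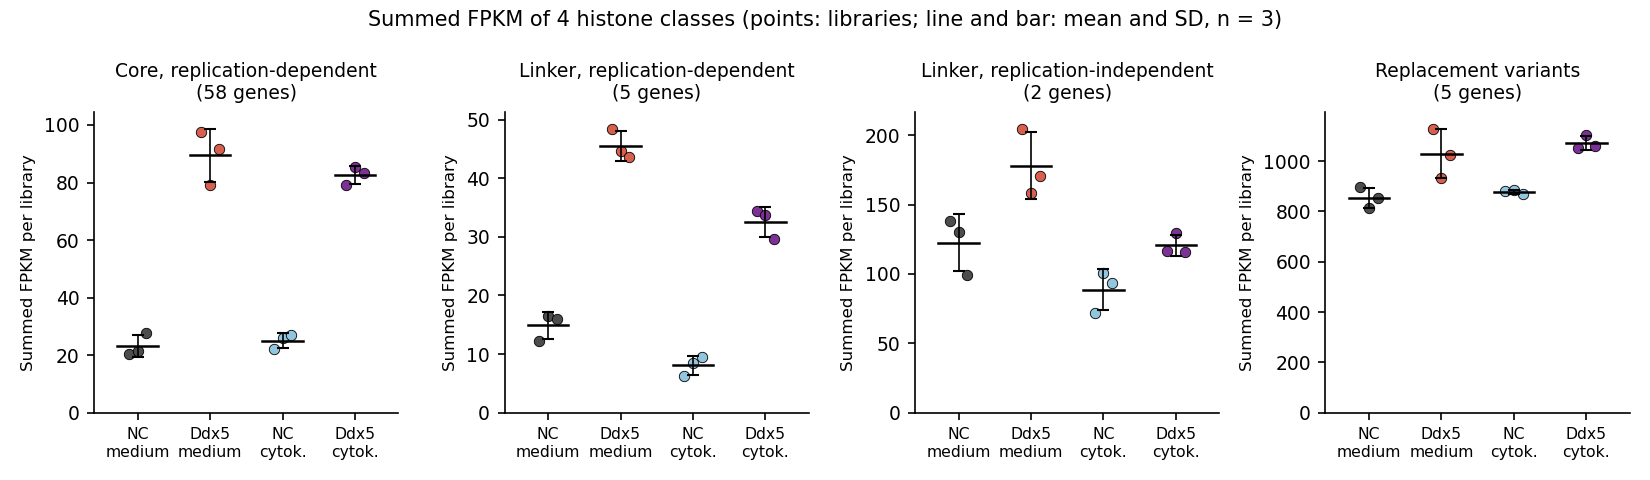
Summed FPKM (vertical axes, linear from 0) of 4 histone classes in each of the 12 libraries, by group, with points for libraries and line and bar for the mean and SD (n = 3). The core genes stand at 20.5 to 27.7 in shRNA-NC and 79.3 to 97.4 in shRNA-Ddx5 libraries in medium, whereas the replacement variants stand at 815 to 895 and 934 to 1129.

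Single genes were tested by limma in a fit of all genes that reached 1 FPKM in 3 or more libraries with Benjamini-Hochberg adjustment. Of 74 histone genes 30 passed this filter. In medium 26 of the 30 rose with the knockdown and 0 fell, where 25.3% of the 12368 genes tested rose and 21.7% fell. At an unadjusted p under 0.05, 27 of the 30 rose and 0 fell, beside 6663 of the 12368 genes in either direction. With cytokines 23 rose and 0 fell, against 23.5% and 22.1% of all genes (24 and 0 unadjusted, beside 6539 of all genes in either direction). However, 18 of the 30 would not have passed the filter on the shRNA-NC libraries alone, which favours members that were higher in shRNA-Ddx5 cells, and the counts over these 30 are given as a description only. Those 18 were H1f1, H1f4, H1f5, H2ac6, H2bc6, H2bc12, H2bc18, H3c1, H3c3, H3c4, H3c8, H3c11, H3c15, H4c1, H4c4, H4c11, H4c12 and H4c14. For them the adjusted p of the knockdown is likewise a description and supports nothing on its own. Of these, H3c8 was no higher in shRNA-Ddx5 cells in medium.

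Counts that do not depend on that filter were therefore taken. Of the 56 core genes with a fragment in any library, 50 had a higher mean in shRNA-Ddx5 than in shRNA-NC cells in medium and 6 a lower one. In 30 of the 56 every shRNA-Ddx5 library was above every shRNA-NC library and in 0 below, where 17.4% of the 27209 genes with a fragment were wholly above and 15.1% wholly below. With cytokines 46 were higher, 9 lower and 1 equal, and 25 were wholly above and 0 wholly below, against 19.8% and 16.7% of all genes. All 5 replication-dependent linker genes were wholly above in medium, and 4 of 5 with cytokines. With voom weights on the recovered fragments and genes with a mean of at least 2 fragments over the 12 libraries, 51 histone genes were tested. That mean takes in the shRNA-Ddx5 libraries, so it also favours members that were higher there. H1f1, for example, held 3 and 0 fragments over the shRNA-NC libraries in medium and with cytokines, against 53 and 50 in shRNA-Ddx5. The voom counts and medians are therefore a description only. In medium 31 of the 51 rose and 0 fell, where 21.0% of 17620 genes rose and 18.7% fell. Unadjusted, 34 rose and 0 fell, beside 8369 of the 17620 genes in either direction. With cytokines 27 rose and 0 fell, against 19.8% and 17.8% (30 and 0 unadjusted, beside 8114 of all genes in either direction). The median log2 fold change of the 40 core genes in that fit was 1.75 in medium and 1.57 with cytokines, beside 0.02 and 0.04 over all genes.

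**Figure D2:**
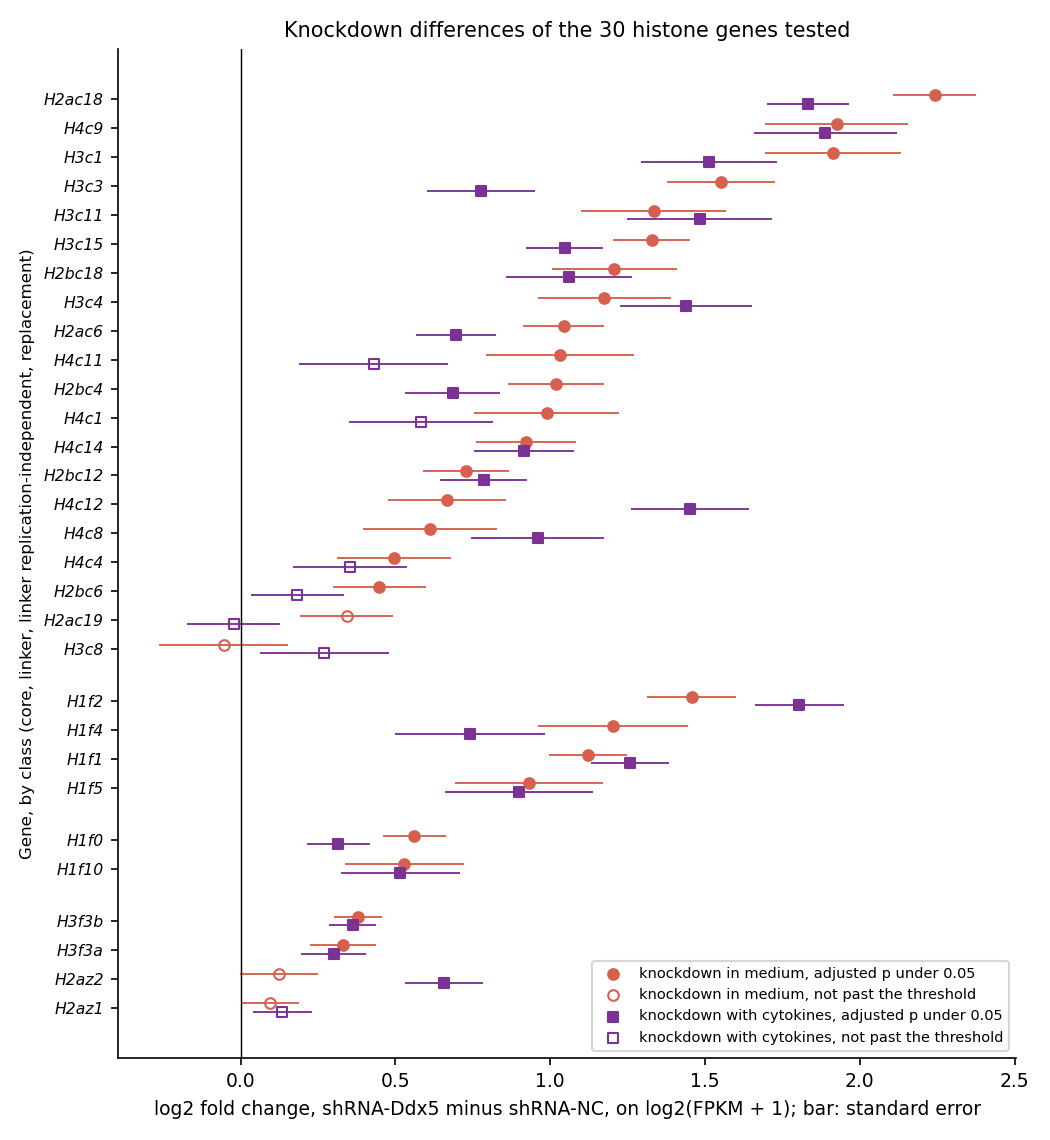
Log2 fold change of shRNA-Ddx5 against shRNA-NC (horizontal axis, on log2(FPKM + 1), bars for the standard error) of the 30 histone genes tested, grouped by class, in medium (circles) and with cytokines (squares). Filled symbols passed the threshold, and the core and replication-dependent linker genes reach up to 2.24 where the replacement variants lie between 0.09 and 0.66.

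Among the H4 genes, all of which encode nearly or wholly the same small protein, H4c9 was the most abundant. Its FPKM was 3.61, 3.91 and 7.597 in shRNA-NC and 23.1, 19.2 and 20.9 in shRNA-Ddx5 cells in medium, and 3.42, 5.30 and 5.81 against 17.4, 24.0 and 19.9 with cytokines. The groups did not overlap in either condition, and behind these values stood 23 to 46 fragments per library in shRNA-NC and 116 to 154 in shRNA-Ddx5. The log2 fold change was 1.93 (SE 0.23, adjusted p = 6.3e-05) in medium and 1.89 (SE 0.23, adjusted p = 6.92e-05) with cytokines, or 4.18 and 4.22 times as ratios of mean FPKM. H4c12 rose by 0.67 in medium (adjusted p = 0.014) and by 1.45 with cytokines (adjusted p = 0.000116), and H4c8 by 0.61 (adjusted p = 0.0362) and 0.96 (adjusted p = 0.00386). In medium neither passed with voom weights on 51 members (adjusted p = 0.0617 and 0.104). The call of H4c8 in medium was also lost under the replicate block (adjusted p = 0.06), under scaling to the sum of fragments (adjusted p = 0.0596), and without any of the shRNA-NC medium libraries or shRNA-Ddx5 medium replicate 1 or 3. H4c1 rose in medium by 0.99 (adjusted p = 0.00498), and its value with cytokines was 0.58 (adjusted p = 0.0615).

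H2ac18 led the H2A genes. It measured 2.27, 2.57 and 2.99 FPKM in shRNA-NC and 17.2, 13.4 and 17.8 in shRNA-Ddx5 cells in medium, and 3.55, 2.69 and 3.54 against 12.6, 15.9 and 13.9 with cytokines. The groups did not overlap, and in medium the log2 fold change was the largest of the 30 members tested, at 2.24 (SE 0.13, adjusted p = 6.44e-07), and the value with cytokines was 1.83 (SE 0.13, adjusted p = 2.24e-06). Its near copy H2ac19, which lies near it on the other strand, had 0.977, 1.24 and 1.00 FPKM in shRNA-NC and 1.53, 1.58 and 1.77 in shRNA-Ddx5 cells in medium. H2ac19 did not pass the threshold in medium (0.34, adjusted p = 0.0831) or with cytokines (-0.02, adjusted p = 0.92), and how reads common to both were assigned was not tested. H2ac6 held 1 fragment in each shRNA-NC library and 11 in each shRNA-Ddx5 library in medium, and rose by 1.04 (adjusted p = 8.3e-05) and by 0.70 with cytokines (adjusted p = 0.00122). It too entered only through the shRNA-Ddx5 libraries. It held 3 fragments over the shRNA-NC libraries of each condition, below the mean of 2 per library that the voom filter asked for. It therefore entered the voom fit through the shRNA-Ddx5 libraries as well. With voom weights its adjusted p was 0.0011 and 0.00756, likewise a description. H2ac12 was below the filter, with 0, 2 and 0 against 14, 9 and 7 fragments in medium and 3, 6 and 3 against 8, 8 and 6 with cytokines.

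The H2B genes differed less. H2bc4, with an extended gene model, had 2.04, 2.01 and 2.95 FPKM in shRNA-NC and 5.12, 5.03 and 7.15 in shRNA-Ddx5 cells in medium, a log2 fold change of 1.02 (SE 0.15, adjusted p = 0.000303), and rose by 0.68 with cytokines (adjusted p = 0.00379). H2bc18 rose by 1.21 (adjusted p = 0.000607) and 1.061 (adjusted p = 0.00141), and H2bc12 by 0.73 (adjusted p = 0.00138) and 0.78 (adjusted p = 0.000871). H2bc6, whose model overlaps Gm33387 on the other strand, rose in medium by 0.45 (adjusted p = 0.0287) and had a value of 0.18 with cytokines (adjusted p = 0.343). Its call in medium was lost under the replicate block (adjusted p = 0.0503), under quantile normalization (adjusted p = 0.0562), and without any of the shRNA-NC medium libraries or shRNA-Ddx5 medium replicate 1 or 3. The summed FPKM of the 17 H2B genes was 2.41 times as high in shRNA-Ddx5 cells in medium and 2.06 times with cytokines, the lowest ratios of the 4 core families, against 5.82 and 5.14 for H3, 4.55 and 3.36 for H2A and 3.91 and 3.51 for H4. H2bc4 held 32.0% to 52.2% of the H2B sum, and H2bc6, H2bc22, H2bc23 and H2bc24 also have extended models. The families are therefore compared on unlike gene models, and the part of this in the ratios was not tested.

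The H3 genes were almost absent from the control libraries. H3c1 was at 0, 3 and 3 fragments in shRNA-NC and 47, 29 and 22 in shRNA-Ddx5 cells in medium, or 0, 0.294 and 0.398 against 5.69, 3.1996 and 2.43 FPKM. With cytokines it was at 3, 3 and 2 against 23, 26 and 17 fragments. Its log2 fold change was 1.91 (SE 0.22, adjusted p = 4.7e-05) in medium and 1.51 (SE 0.22, adjusted p = 0.00023) with cytokines, on a scale that understates changes near 0. It entered this fit only through the shRNA-Ddx5 libraries. In the fit with voom weights the filter was the mean over all 12 libraries, those of shRNA-Ddx5 included. There the value of H3c1 was 4.25 (adjusted p = 0.00035) in medium and 3.002 (adjusted p = 0.0022) with cytokines. H3c3 held 2 fragments over the 3 shRNA-NC libraries and 54 over the 3 shRNA-Ddx5 libraries in medium. Scaled to the fragments on genes this is a ratio of 26.8, with an exact 95% counting interval from 7.08 to 227. With cytokines it was 3 against 22 fragments, a ratio of 7.92 with an interval from 2.38 to 41.3. H3c3 entered the fit only through the shRNA-Ddx5 libraries. Its ratios and intervals, taken on fragments pooled over libraries, are therefore a description only and leave out the spread between libraries. H3c11 rose by 1.33 (adjusted p = 0.000816) and 1.48 (adjusted p = 0.000403), and H3c4 by 1.17 (adjusted p = 0.00105) and 1.44 (adjusted p = 0.000277). Both entered through the shRNA-Ddx5 libraries too. With voom weights, where the filter again took in those libraries, their adjusted p was 0.00278 and 0.00282 in medium and 0.00155 and 0.00134 with cytokines. H3c8 was the exception among the 4 most abundant H3 genes, at 0.745 ± 0.226 and 0.687 ± 0.280 FPKM (SD, n = 3) in medium and with a log2 fold change of -0.05 (adjusted p = 0.853). Its shRNA-Ddx5 and shRNA-NC libraries overlapped with cytokines as well, where the value was 0.27 (adjusted p = 0.316).

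**Figure D3:**
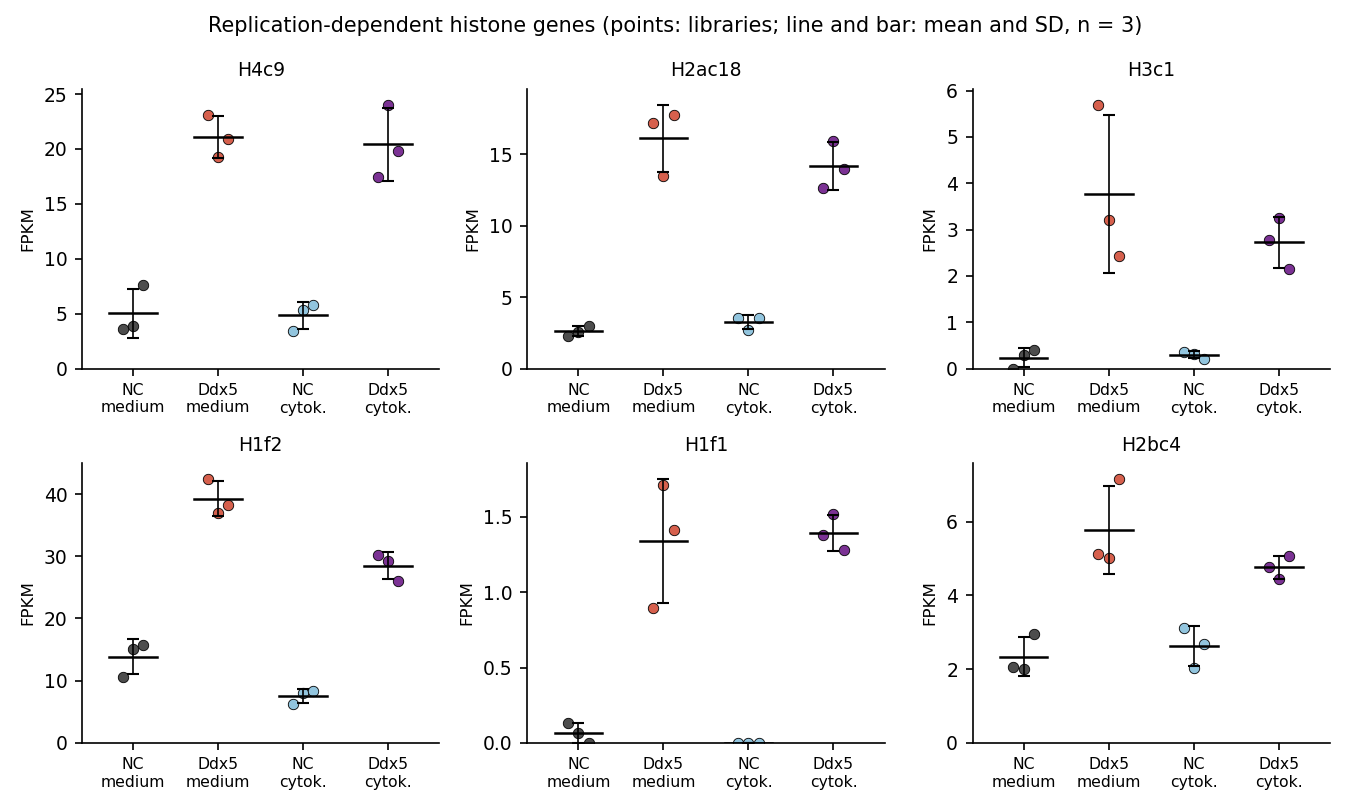
FPKM (vertical axes, linear from 0) of 6 replication-dependent histone genes in the 12 libraries by group, with points for libraries and line and bar for the mean and SD (n = 3). In all 6 panels every shRNA-Ddx5 library lies above every shRNA-NC library of the same condition, for example 19.2 to 23.1 against 3.61 to 7.597 for H4c9 in medium.

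H1f2, which encodes a somatic linker histone, was the only replication-dependent linker gene well above the filter in control cells. It lies at chr13:23922790-23923514 in GRCm39. It measured 10.6, 15.1 and 15.8 FPKM in shRNA-NC and 42.4, 37.1 and 38.3 in shRNA-Ddx5 cells in medium, and 6.19, 7.95 and 8.29 against 30.2, 29.3 and 26.02 with cytokines. The groups were well apart, from 158 to 223 fragments against 485 to 506 in medium and from 75 to 113 against 297 to 362 with cytokines. The log2 fold change was 1.46 (SE 0.14, adjusted p = 1.78e-05) in medium and 1.81 (SE 0.14, adjusted p = 4e-06) with cytokines.

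The other replication-dependent linker genes were low. H1f1 had 2, 1 and 0 fragments in shRNA-NC and 11, 23 and 19 in shRNA-Ddx5 cells in medium. Scaled to the fragments on genes, the ratio was 17.6 with an exact 95% counting interval from 5.69 to 87.8. With cytokines it had no fragment in any shRNA-NC library and 17, 18 and 15 in shRNA-Ddx5. This is at least 18.003-fold higher when the 3 shRNA-NC libraries together are set at a floor of 3 fragments. H1f1 entered the fit only through the shRNA-Ddx5 libraries, so its pooled ratios and interval are a description only. H1f4 rose by 1.202 (adjusted p = 0.00196) and 0.74 (adjusted p = 0.0267), and H1f5 by 0.93 (adjusted p = 0.00777) and 0.90 (adjusted p = 0.00964). H1f3 was below the filter, with 3, 5 and 0 fragments in shRNA-NC and 15, 11 and 10 in shRNA-Ddx5 cells in medium. With voom weights it rose in medium by 2.50 (adjusted p = 0.00925), and with cytokines its groups overlapped and the value was 0.97 (adjusted p = 0.295). The germline genes H1f6, H1f7, H1f8 and H1f9 had from 0 to 4 fragments in any library, too few for a comparison.

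H1f0 and H1f10 are made outside S phase from polyadenylated mRNAs, and H1f0 is known to accumulate in cells that stop dividing. H1f0 measured 44.7, 43.2 and 41.1 FPKM in shRNA-NC and 71.6, 58.5 and 62.3 in shRNA-Ddx5 cells in medium, and 28.6, 35.1 and 31.5 against 40.1, 43.0 and 35.9 with cytokines. It rose by 0.56 in medium (SE 0.10, adjusted p = 0.00104) and by 0.32 with cytokines (SE 0.10, adjusted p = 0.0255). Scaled to the sum of fragments, the call with cytokines was lost (0.26, adjusted p = 0.0625), as it was under quantile normalization (0.22, adjusted p = 0.0679). H1f10 was at 93.1, 87.1 and 58.5 FPKM against 133, 99.8 and 109 in medium, a log2 fold change of 0.53 (SE 0.19, adjusted p = 0.0405), and had 0.52 with cytokines (SE 0.19, adjusted p = 0.0462). Both calls of H1f10 were lost under the replicate block (adjusted p = 0.06 and 0.0675) and under scaling to the sum of fragments (adjusted p = 0.0983 and 0.0823). The value was 0.32 in medium without shRNA-NC medium replicate 3 (adjusted p = 0.144) and 0.33 with cytokines without shRNA-NC cytokines replicate 1 (adjusted p = 0.177), and leaving out other single libraries also ended the calls (6 of 12 in medium and 7 of 12 with cytokines in all).

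The replacement variants were the most abundant members. H3f3a and H3f3b encode the same H3.3 protein. H3f3b measured 233, 210 and 231 FPKM in shRNA-NC and 307, 278 and 291 in shRNA-Ddx5 cells in medium, and 255, 254 and 243 against 319, 334 and 316 with cytokines. It rose by 0.38 (SE 0.08, adjusted p = 0.00211) and 0.36 (SE 0.08, adjusted p = 0.00282), and overlaps Unk on the other strand. H3f3a was at 358, 335 and 292 against 471, 368 and 402 FPKM in medium, and rose by 0.33 (SE 0.11, adjusted p = 0.0242) and by 0.30 with cytokines (SE 0.11, adjusted p = 0.0382). Under quantile normalization neither passed, with 0.06 (adjusted p = 0.56) for H3f3a and 0.06 (adjusted p = 0.502) for H3f3b in medium, and H3f3a also lost both calls when scaled to the sum of fragments.

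The H2A.Z genes parted. H2az1 stood at 257 ± 22.1 and 275 ± 27.0 FPKM (SD, n = 3) in medium and 259 ± 7.16 and 285 ± 10.03 (SD, n = 3) with cytokines, and its log2 fold changes of 0.09 and 0.13 did not pass (adjusted p = 0.44 and 0.269). With quantile normalization the value in medium turned to -0.22 and passed (adjusted p = 0.0185). H2az2 overlapped in medium, at 41.4, 37.2 and 53.8 against 51.5, 42.4 and 49.5 FPKM, with a log2 fold change of 0.12 (SE 0.13, adjusted p = 0.442). With cytokines it was at 26.4, 29.6 and 30.04 against 45.0, 48.5 and 43.9 FPKM and rose by 0.66 (SE 0.13, adjusted p = 0.00146). The difference between those knockdown effects was 0.53 (SE 0.18, adjusted p = 0.095) and did not pass. H2ax was listed at 0 in every library. Its model lies wholly inside that of Dpagt1 on the same strand, to which 4.13 to 6.14 FPKM were assigned, and no level is given for it.

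**Figure D4:**
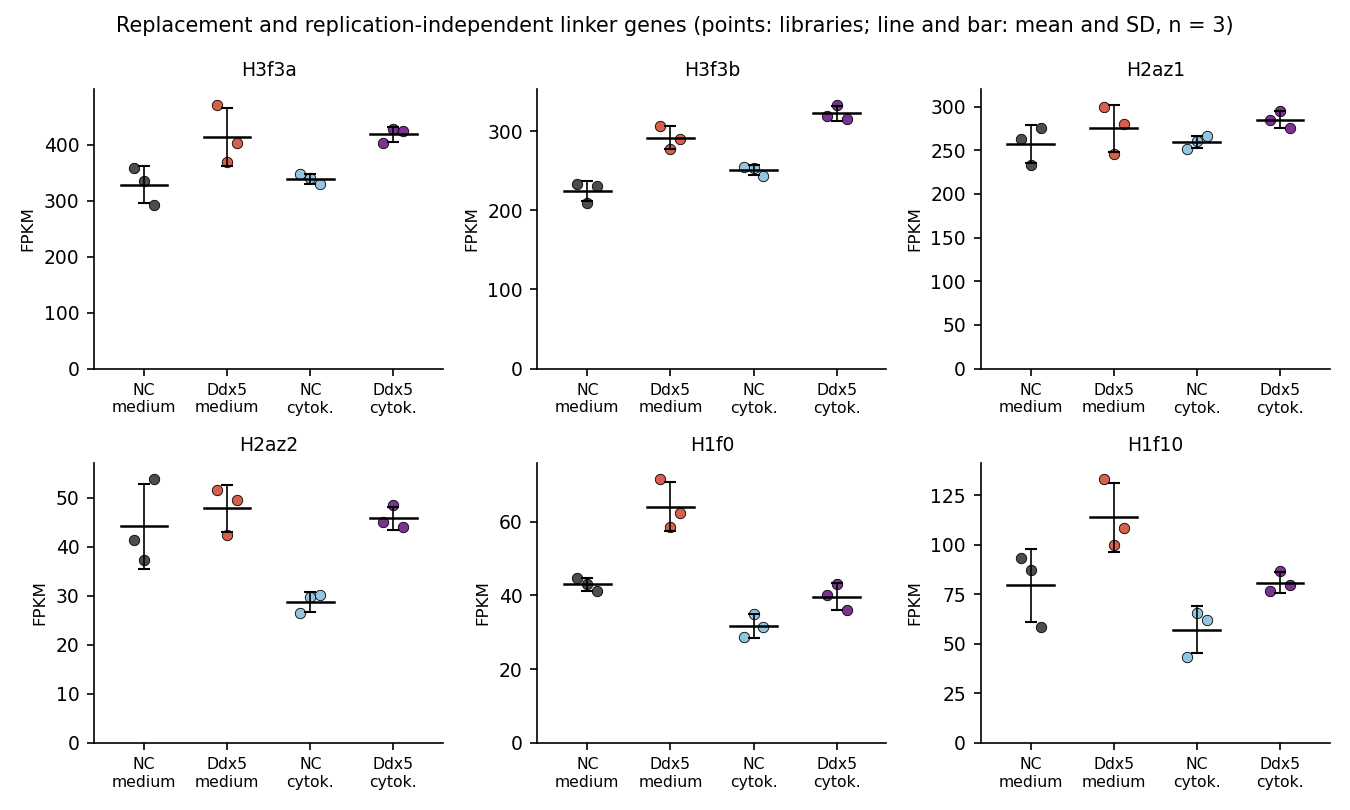
FPKM (vertical axes, linear from 0) of 4 replacement variants and of the replication-independent linker genes H1f0 and H1f10 in the 12 libraries by group, with points for libraries and line and bar for the mean and SD (n = 3). The groups lie closer together than those of the replication-dependent genes, and H2az2 is at 26.4 to 30.04 in shRNA-NC with cytokines, below the other 3 groups (37.2 to 53.8).

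Few histone genes passed the threshold for stimulation with cytokines. In shRNA-NC cells 0 of the 30 rose and 3 fell, where 18.6% of all genes tested rose and 15.2% fell. Unadjusted, 1 rose and 5 fell, beside 5464 of the 12368 genes in either direction. With voom weights 1 of 51 members rose and 3 fell, where 2576 of 17620 genes rose and 2352 fell. In shRNA-Ddx5 cells 2 rose and 3 fell, where 13.5% of all genes rose and 13.5% fell (2 and 8 unadjusted, beside 4745 of all genes in either direction). The summed FPKM of the core genes overlapped between medium and cytokines in both lines, with ratios of 1.08 in shRNA-NC and 0.924 in shRNA-Ddx5. That of the replication-dependent linker genes was wholly lower with cytokines in both, at 0.545 and 0.716 of the level in medium. For the core genes the overlap in shRNA-Ddx5 depended on the measure. Scaled to the fragments on genes, their sum there was wholly lower with cytokines, at 0.850 of the level in medium. Their mean of log2(FPKM + 1) was also wholly lower there, with a difference of -0.086. In shRNA-NC these measures of the core genes overlapped as well.

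H1f2 and H1f0 fell in both lines. In shRNA-NC cells H1f2 went from 13.8 ± 2.84 to 7.48 ± 1.13 FPKM (SD, n = 3), and it fell by 0.80 on the log2 scale (SE 0.14, adjusted p = 0.00155). In shRNA-Ddx5 cells it went from 39.2 ± 2.83 to 28.5 ± 2.20 FPKM (SD, n = 3) and fell by 0.45 (adjusted p = 0.0392), a call lost under the replicate block (adjusted p = 0.0559). H1f0 fell by 0.43 in shRNA-NC (adjusted p = 0.0075) and by 0.68 in shRNA-Ddx5 cells (adjusted p = 0.000462). The values of H1f10 were -0.47 and -0.48 and did not pass (adjusted p = 0.0824 and 0.0878). H2az2 fell in shRNA-NC cells by 0.59 (adjusted p = 0.00428), and its value in shRNA-Ddx5 cells was -0.06 (adjusted p = 0.78).

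Of the core genes, H4c8 and H4c12 rose with cytokines in shRNA-Ddx5 cells. H4c8 went from 2.80, 1.53 and 2.93 to 5.14, 5.64 and 5.11 FPKM, a log2 fold change of 0.91 (SE 0.22, adjusted p = 0.00922), and H4c12 from 2.53, 1.22 and 1.09 to 2.66, 3.997 and 3.73, a change of 0.80 (SE 0.19, adjusted p = 0.00922). H3c3 fell there from 22, 15 and 17 to 12, 5 and 5 fragments, by 0.72 on the log2 scale (adjusted p = 0.0105), and did not pass with voom weights (adjusted p = 0.0692). The interaction is the knockdown difference with cytokines less that in medium. In its test 0 of the 30 members passed in limma, where 8.21% of all genes tested passed. With voom weights 0 of 51 passed, where 321 of 17620 genes passed upward and 469 downward. At an unadjusted p under 0.05 in limma there were 3 of 30, beside 2916 of the 12368 genes tested. The values of H3c3 and H4c12 were -0.78 (adjusted p = 0.0809) and 0.78 (adjusted p = 0.103), so that no member was shown to respond to the knockdown differently in the 2 conditions.

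**Figure D5:**
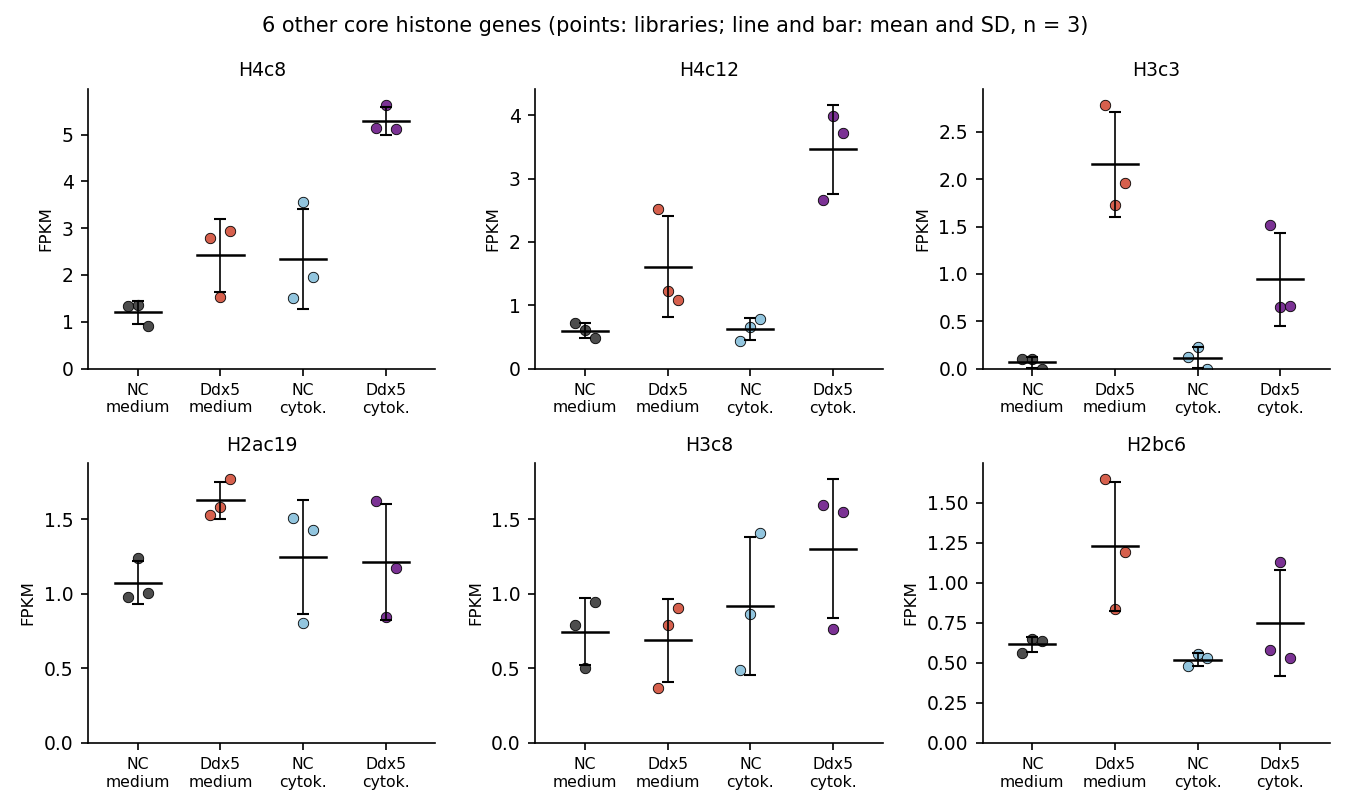
FPKM (vertical axes, linear from 0) of 6 further core histone genes in the 12 libraries by group, with points for libraries and line and bar for the mean and SD (n = 3). H4c8 and H4c12 are highest in shRNA-Ddx5 cells with cytokines (5.11 to 5.64 and 2.66 to 3.997), H3c3 is highest in shRNA-Ddx5 cells in medium, and the groups of H3c8 overlap.

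Genes that make, process and deposit histones were counted from lists named by function. Of 30 genes of S phase, 18 rose and 5 fell in medium and 14 rose and 3 fell with cytokines, where 25.3% and 21.7% of all genes tested rose and fell in medium and 23.5% and 22.1% with cytokines. The summed FPKM of the list was 1288 to 1371 in shRNA-NC against 1563 to 1705 in shRNA-Ddx5 cells in medium. Tk1, thymidine kinase, rose by 0.90 (adjusted p = 0.00127) and 1.29 (adjusted p = 0.000114), and Tyms, thymidylate synthase, by 0.82 and 1.1998. Rrm1 and Rrm2, the subunits of ribonucleotide reductase, rose by 0.86 and 0.83 in medium. The genes that fell in medium, chosen after their values were seen, were Pola1 (-0.66), Cdt1 (-0.46), E2f2 (-0.40), Pole (-0.33) and Slbp (-0.30). With cytokines Cdt1 (-0.61), Pola1 (-0.47) and Pole (-0.21) fell. Among 13 RNAs known to lack a poly(A) tail 11 were listed in the data and 3 passed the filter. The summed FPKM of these 11 was 11.6 to 18.7 in shRNA-NC and 14.3 to 21.8 in shRNA-Ddx5 cells in medium. With cytokines it was 15.7 to 29.0 and 29.7 to 46.0. Rn7sk, the 7SK RNA, rose with cytokines by 0.90 (adjusted p = 0.0048), and its value in medium was 0.41 (adjusted p = 0.135). The part of S phase genes or of RNAs without a tail in the histone differences was not tested.

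Of 22 genes of histone mRNA 3′ end processing 21 were tested, of which 5 rose and 5 fell in medium and 3 rose and 3 fell with cytokines. The shares over all genes tested were 25.3% and 21.7% in medium and 23.5% and 22.1% with cytokines, so these counts are near or below the background and are not a result about the list. Casp8ap2, a component of histone locus bodies, fell by 1.02 (adjusted p = 0.00359) and 0.72 (adjusted p = 0.0227), and Lsm10, a subunit of the U7 particle that cleaves histone pre-mRNA, fell by 0.76 in medium (adjusted p = 0.00117), with -0.31 with cytokines (adjusted p = 0.0936). Ncbp2, a subunit of the cap-binding complex, rose by 0.72 (adjusted p = 2.22e-05) and 0.52 (adjusted p = 0.000182). Mblac1, a nuclease of histone pre-mRNA, rose in medium by 0.68 (adjusted p = 0.0064), with -0.03 with cytokines (adjusted p = 0.908). Slbp, which binds the stem-loop and was chosen after its values were seen, went from 82.1 ± 5.13 to 66.5 ± 2.28 FPKM (SD, n = 3) in medium and fell by 0.30 (adjusted p = 0.0237). With cytokines its value was -0.11 (adjusted p = 0.364).

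Of 26 histone chaperones, 5 rose and 6 fell in medium and 8 rose and 4 fell with cytokines. Read against the same shares over all genes tested, these counts are not a result about the list either. Asf1b, a chaperone of new H3 and H4, rose by 0.57 (adjusted p = 0.000362) and 0.73 (adjusted p = 6.41e-05). Atrx, which deposits H3.3 at repeats, fell by 1.74 (adjusted p = 0.0015) and 0.93 (adjusted p = 0.0405), and Ubn1, a partner of HIRA in H3.3 deposition, fell by 0.64 (adjusted p = 2.37e-05) and 0.36 (adjusted p = 0.00118). Ubn2 fell in medium by 0.63 (adjusted p = 0.00678), with -0.01 with cytokines (adjusted p = 0.977). Of 11 other histone variants 4 were tested, and none passed in medium (0 at either sign). With cytokines Cenpa, the centromeric H3, rose by 0.79 (adjusted p = 0.000166) and H2aj by 1.063 (adjusted p = 0.0384). Sums over the lists of 3′ end processing genes (450 to 476 against 474 to 496 FPKM in medium) and of chaperones (1410 to 1457 against 1401 to 1476) lay close together or overlapped, unlike those of the replication-dependent histone genes.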

How the data were processed

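RNA-seq of 12 libraries was used, 3 in each of 4 groups taken from the labels. According to the labels' processing notes HISAT2 2.0.5 and featureCounts 1.5.0-p3 were used with mm10, whereas the study's methods give another featureCounts version. The chromosome accessions of the table are those of GRCm39, and 99.9% of the 37133 symbols shared with GENCODE vM39 overlapped there. The authors deposited FPKM per gene, and multiplied by gene length these were whole multiples of 1 step per library (100% within 0.02), which gave the fragments. The strandedness is not given in the sources used here.

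Values were compared as log2(FPKM + 1) for the 12368 genes that reached 1 FPKM in 3 or more libraries, with limma 3.58.1 in R 4.3.3 (lmFit, contrasts.fit and eBayes with trend), 4 group means and a threshold of 0.05 on the Benjamini-Hochberg adjusted p over all genes tested. A difference on this scale understates the change of genes near 0 FPKM. The p-values measure the spread between libraries labelled as replicates. Genes named were every linker and replacement member with a fragment, the 4 most abundant of each core family, the 5 largest rises and falls among members past the threshold in each contrast, Ddx5, and up to 4 genes past the threshold in the knockdown contrasts of each of 9 lists. The members and lists were chosen with earlier results of these data known. The replicate numbers were checked as pairs: same-numbered libraries had correlations of their deviations over 0.1 in 4 of 18 pairs. Counting intervals and floors cover counting error only. Stem-loops, promoter motifs and common windows were found by exact matching in Python 3.11.15, and figures were drawn with matplotlib 3.10.9. The alternatives are given at the end.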

Additional observations from a re-analysis of the deposited data

How the results depend on the processing

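Counts of histone genes past the threshold were compared with 26 in medium and 23 with cytokines for the knockdown, 3 and 5 for cytokines in shRNA-NC and shRNA-Ddx5, and 0 for the interaction. Requiring an FPKM of at least 1 in every library left 10 members, of which 8 and 9 passed for the knockdown and 2 for cytokines in shRNA-Ddx5. Of all 10019 genes there, 2670 rose and 2117 fell for the knockdown in medium, and 2347 and 2255 with cytokines. For cytokines in shRNA-Ddx5, 1277 rose and 1317 fell. Requiring a log2 fold change of at least 1 in size left 14 and 10 for the knockdown and 0 for both cytokine contrasts. Over all 12368 genes it left 422 rises and 352 falls for the knockdown in medium, and 450 and 345 with cytokines. For cytokines it left 362 rises and 133 falls in shRNA-NC, and 462 and 175 in shRNA-Ddx5. Quantile normalization gave 6 and 9 for cytokines, where 1815 and 1398 of all genes rose and 2368 and 2183 fell. A fit of the libraries compared alone gave 8 in shRNA-Ddx5, where 1963 of all genes rose and 1891 fell. Without a filter the interaction gave 2 (H2ac7 and H2bc13, chosen after their values were seen), beside 450 rises and 548 falls among 27209 genes. The cause was not tested. Leaving out 1 library at a time gave 21 to 27 and 19 to 23 for the knockdown, 3 to 6 and 4 to 7 for cytokines and 0 to 1 for the interaction. Over all genes these fits gave 2569 to 3331 rises and 2241 to 2870 falls for the knockdown in medium. With cytokines they gave 2295 to 3152 and 2211 to 2919. For cytokines they gave 1807 to 2466 and 1413 to 2108 in shRNA-NC, and 1159 to 1971 and 1080 to 1913 in shRNA-Ddx5. For the interaction they gave 238 to 520 and 321 to 619. Without shRNA-NC cytokines replicate 1, 6 passed for cytokines in shRNA-NC, beside 2093 rises and 1644 falls over all genes. The interaction call was H4c12 without shRNA-Ddx5 medium replicate 1 and H3c3 without shRNA-Ddx5 cytokines replicate 1. The replicate block gave 22 and 22 for the knockdown, 3 and 4 for cytokines and 0 for the interaction. Over all genes the block gave 2927 rises and 2525 falls for the knockdown in medium, and 2692 and 2540 with cytokines. For cytokines it gave 2087 and 1682 in shRNA-NC and 1488 and 1414 in shRNA-Ddx5, and for the interaction 293 and 394. The replicate numbers were not shown to pair the libraries (correlations from -0.394 to 0.448 over 18 pairs). Between shRNA-NC and shRNA-Ddx5 in medium the correlations were 0.448, 0.0425 and 0.313, so pairing there is not excluded.

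The log2 ratio of class sums was 1.94 and 1.72 for the core genes and 1.56 and 1.36 as fragments scaled to library size, and without the 2 most abundant genes 1.51 with cytokines. As a mean of log2(FPKM + 1) the differences were 0.55 and 0.44 for the core and 1.08 and 0.99 for the replication-dependent linker genes, -0.25 and -0.34 for cytokines in the latter and -0.072 for cytokines in shRNA-NC among replacement variants, where the sum had been 0.04. Scaled to the sum of fragments, calls over all genes moved from 3131 up and 2686 down to 2480 and 3353 for the knockdown in medium, and from 2303 and 1878 to 1850 and 2529 for cytokines in shRNA-NC, and quantile normalization gave 1815 and 2368 for the latter and 1398 and 2183 for cytokines in shRNA-Ddx5. Single copies of core genes, members under 3 fragments and H2ax are limited by depth and shared sequence. Leaving out single libraries of the groups compared also ended the calls of H1f0 with cytokines (without shRNA-NC cytokines replicate 1 or 3 or shRNA-Ddx5 cytokines replicate 1 or 2, 0.25 to 0.31), of H1f4 with cytokines (without shRNA-NC cytokines replicate 1 or 2 or shRNA-Ddx5 cytokines replicate 2 or 3, 0.55 to 0.76), of H3f3a in medium (without shRNA-NC medium replicate 3 or shRNA-Ddx5 medium replicate 1 or 3, 0.23 to 0.35) and with cytokines (without any of the 6, 0.28 to 0.33), and of H1f2 for cytokines in shRNA-Ddx5 (without any of the 6, -0.49 to -0.39).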
